A study of Homo sapiens with 12 samples.

Results

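The interaction of YAP/TAZ depletion with STING depletion was measured gene by gene in WI-38 cells, an established line of human embryonic lung fibroblasts. It asks whether small interfering RNAs (siRNAs) against YAP and TAZ changed a transcript by the same amount in fibroblasts that also received siRNA against STING as in fibroblasts that did not. The rule takes 4 of the 6 transfection groups of the study, which is 8 of its 12 libraries. The STING_YT group received siRNAs against YAP, TAZ and STING. The STING group received siRNA against STING with control siRNA. The titles mark the STING siRNA as siSTING4x and the control siRNA as siAS without such a mark, and the sources used here do not say what 4x means, so a difference in siRNA amount or pool between these arms cannot be told apart from the loss of STING. The YT group received siRNAs against YAP and TAZ with control siRNA, and the control group received control siRNA alone. All groups were lipid-transfected, so each difference is between siRNAs and not against untouched cells. The other groups of the study received siRNA against the DNA sensor cGAS, with (cGAS_YT) or without (cGAS) those against YAP and TAZ. Each group had 2 libraries, numbered as the labels number them: 15 and 16 for STING_YT, 13 and 14 for STING, 3 and 4 for YT, and 1 and 2 for control. The labels do not say whether the libraries of a group came from separate cultures, so every p-value measures only the spread between these libraries. In RNA from whole cultures, fewer cells with a transcript and less of it per cell cannot be told apart.

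YAP and TAZ are coactivators that the Hippo kinases keep out of the nucleus. In the nucleus they bind TEAD transcription factors and switch on genes of cell division, cytoskeleton and matrix, and in fibroblasts they respond to the stiffness of the surroundings. STING is a membrane protein of the endoplasmic reticulum. When the enzyme cGAS meets DNA in the cytosol it makes the messenger cGAMP, STING binds it, and the kinase TBK1 is then recruited. That leads to interferon genes through IRF3 and to inflammatory genes through NF-kB.

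Libraries held 17790774 to 20650727 reads, and the 2 libraries of a group correlated across genes at r = 0.987 (YT) to 0.995 (STING), with genes not being independent replicates. The YT libraries differed more than 2-fold from each other in 249 genes, against 25 to 77 genes in the other groups. YAP1 (YAP) had 12.6 and 16.1 CPM (read counts scaled to the size of the library) in STING_YT and 94.7 and 82.2 CPM in STING. In YT and control it had 16.3 and 13.02 CPM and 114 and 105 CPM. WWTR1 (TAZ) had 12.7 and 11.4 CPM in STING_YT, 102 and 99.2 CPM in STING, 22.8 and 16.7 CPM in YT, and 133 and 145 CPM in control. Both siRNA targets were low in each library with YAP/TAZ siRNAs, and WWTR1 was lower in STING_YT than in YT by 0.65 ± 0.12 (SE, log2 scale, adjusted p = 0.000627 by limma). Their interactions were 0.28 (95% interval -0.12 to 0.67) for YAP1 and -0.19 (-0.56 to 0.18) for WWTR1 on the log2 scale, and neither passed the test. TMEM173, the gene of STING, had 1.28 and 1.93 CPM in STING_YT, 1.78 and 1.77 CPM in STING, 18.1 and 19.2 CPM in YT, and 24.5 and 23.6 CPM in control. It was low in each STING library with or without the YAP/TAZ siRNAs. All 10 of 10 fibroblast markers were measured, and VIM had the 1 called interaction (0.63 ± 0.19 SE, adjusted p = 0.0491 by limma). The VIM call was lost without either control, STING or STING_YT library and without YT library 4, while 5 fibroblast markers were called higher without YT library 3, 3 with edgeR and 4 with DESeq2. Of the markers of other cell types, 3 of 7 epithelial, 0 of 4 endothelial, 2 of 5 haematopoietic and 0 of 3 neural ones were tested. The epithelial KRT18 had 14.5 to 28.5 CPM outside YT library 3, where it had 11.04 CPM, and the haematopoietic CD14 stayed between 0.215 and 1.14 CPM in the 8 libraries. The other haematopoietic marker tested, CD68, reached 5 CPM in at least 2 libraries. Its interaction of -0.79 was not called, except as lower under a constant prior.

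Levels were compared as log2(CPM + 1) in 1 fit over 13894 genes. The YT effect with STING depleted is STING_YT minus STING, the YT effect with STING intact is YT minus control, and the interaction is the first minus the second. A negative interaction means that the STING_YT level lay below the additive expectation, which is the level obtained by adding the log2 effects of the STING and the YAP/TAZ siRNAs to the control. Of the genes tested, 1095 (7.88%) had an interaction at an adjusted p under 0.05. Of these, 465 (3.35%) were higher and 630 (4.53%) were lower, and 171 (1.23%) and 222 (1.6%) of them by at least 2-fold. For comparison, 38.9% of genes were called in STING_YT minus STING (19.1% higher, 19.8% lower) and 41.6% in YT minus control (20.6% higher, 20.9% lower). STING minus control called 15% of genes and STING_YT minus YT 34.1%, of which 16% of all genes were higher. The fit took its spread from all 12 libraries, and a fit of only the 8 libraries called 810 interactions. At an unadjusted p under 0.05, 3010 genes had an interaction, edgeR on the recovered reads called 1029 and DESeq2 1211. The number depended on YT library 3, without which 2539 genes were called, 1048 of the 1095 among them, and leaving out any other of the 8 libraries gave 550 to 1313.

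To say what became of each change, the 1305 genes called at 2-fold or more in YT minus control (4.35% of genes higher, 5.04% lower) were sorted by the other 2 contrasts. A change was weakened, strengthened, lost or reversed when the interaction was called. Lost means that STING_YT minus STING did not pass the test, and reversed that it passed with the opposite sign. A change was additive within 2-fold when the interaction was not called and its 95% interval stayed within 2-fold of 0, and not resolved when that interval was wider. There were 551 additive changes (42.2%), 412 that were not resolved (31.6%), 165 weakened (12.6%), 142 lost (10.9%), 11 reversed (0.843%) and 24 strengthened (1.84%). The YT and control libraries entered both the choice of the 1305 genes and the interaction, so the 2 are not independent and these shares are descriptions. A further 290 genes, called gained, were not called in YT minus control but were called in both STING_YT minus STING and the interaction. Of these, 145 were higher and 145 lower in STING_YT than in STING. A fit of only the 8 libraries gave 196 gained changes.

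**Figure D1:**
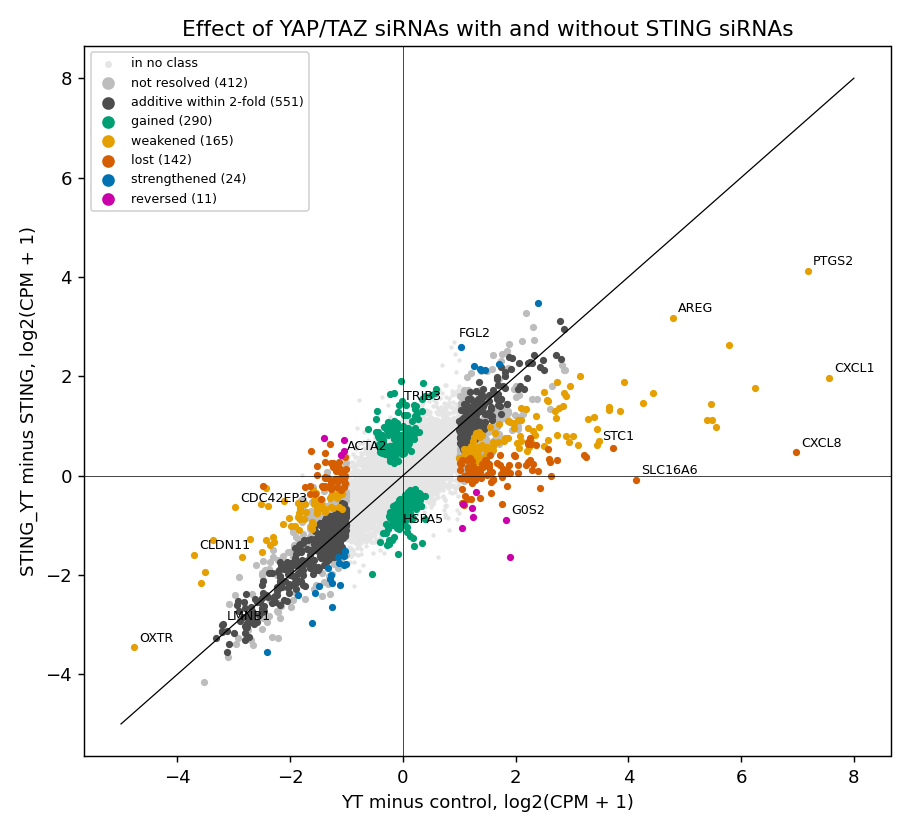
Effect of the YAP/TAZ siRNAs per gene with STING depleted (STING_YT minus STING, vertical axis) against the effect with STING intact (YT minus control, horizontal axis), both as differences of log2(CPM + 1). Each point is 1 of 13894 genes, coloured by class with the number of genes in the legend; genes on the diagonal changed by the same amount in both. CXCL8 and CXCL1 lie far to the right and close to the horizontal axis at 0.48 and 1.97.

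Rises and falls differed in what became of them. Of 605 genes that rose in YT over control, 194 (32.1%) were additive, 104 (17.2%) weakened, 93 (15.4%) lost and 7 (1.16%) reversed. Of 700 genes that fell, 357 (51.0%) were additive, 61 (8.71%) weakened, 49 (7.0%) lost and 4 (0.571%) reversed. The strongest rises held the contrast. All 28 genes that rose 8-fold or more in YT had a called interaction, 23 weakened and 5 lost, and their median YT effect was 1.16 with STING depleted against 3.88 with STING intact. The 16 genes that fell 8-fold or more held 8 additive, 3 not resolved and 5 weakened changes, with a median of -3.14 with STING depleted and -3.22 with STING intact. When genes were chosen on STING_YT minus STING instead, 5 rose 8-fold or more, of which 1 had a called higher and 2 a called lower interaction. At 4-fold or more that choice gave 51 rises, 13 with a higher and 3 with a lower interaction. Chosen on YT minus control, 114 genes rose 4-fold or more, 1 with a higher and 79 with a lower interaction.

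**Figure D2:**
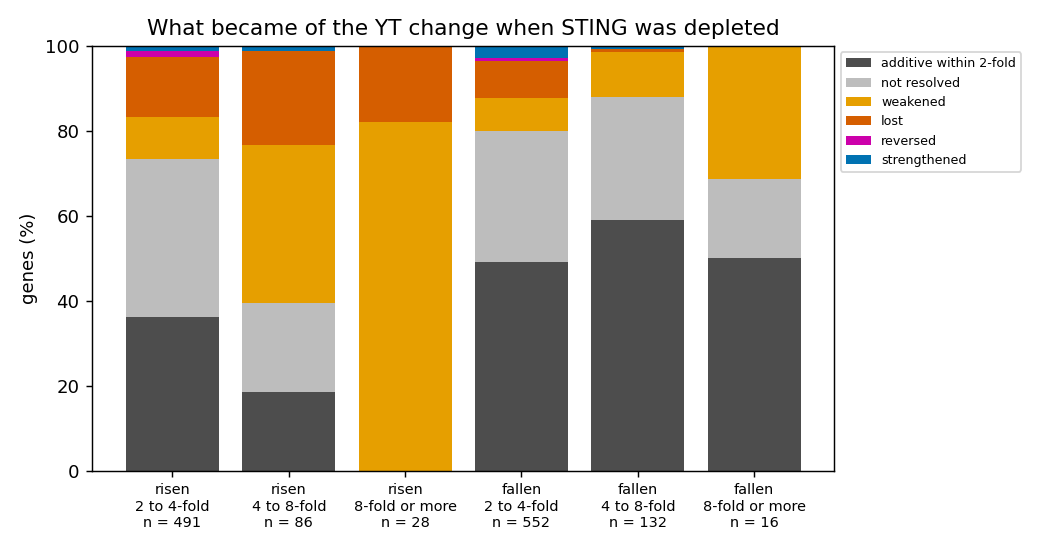
Share of genes (%) in each class for genes that rose or fell in YT minus control, split by the size of that change, with the number of genes under each bar. Weakened and lost changes fill the bar of the 28 genes that rose 8-fold or more, while 8 of the 16 genes that fell as far were additive.

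Chemokines that attract neutrophils rose less with YAP/TAZ siRNAs when STING was depleted. All 6 measured of 7 had a lower interaction, against 4.53% of all genes. Their median interaction was -4.29, against -0.001 over all genes. Their median YT effect was 1.14 with STING depleted and 5.51 with STING intact. CXCL8 (interleukin-8, chr4:73740506-73743716, + strand) had 1.67 and 2.08 CPM in STING_YT, 1.05 and 1.07 CPM in STING, 493 and 146 CPM in YT, and 0.727 and 1.65 CPM in control. It was high in the YT libraries only, and no other group overlapped them. Its YT effect was 0.48 ± 0.40 (SE) with STING depleted, with a 95% interval of -0.36 to 1.31, and 6.98 ± 0.40 with STING intact. The interaction was -6.50 ± 0.56 (adjusted p = 3e-06 by limma), and the additive expectation of 258 CPM stood against an observed 1.87 CPM. CXCL1, which acts on the same receptor CXCR2, had 6.66 and 9.81 CPM in STING_YT, 1.52 and 1.13 CPM in STING, 496 and 292 CPM in YT, and 2.49 and 0.17 CPM in control. STING_YT libraries lay above both STING libraries but far below both YT libraries. Its YT effect of 1.97 ± 0.40 with STING depleted still passed the test, and the interaction was -5.59 ± 0.56 (adjusted p = 1.19e-05 by limma). CXCL5 and CXCL3 had interactions of -4.57 ± 0.37 and -4.01 ± 0.41. With edgeR, 4 of the 6 were called. CXCL1, CXCL3 and other members of the cluster are close in sequence, so reads may have been split between them.

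Some cytokines of the interleukin-1 group and genes of prostaglandin synthesis also had lower interactions. IL1B, the secreted inflammatory cytokine interleukin-1 beta, had 1.89 and 2.03 CPM in STING_YT, 0.42 and 0.322 CPM in STING, 90.7 and 58.5 CPM in YT, and 1.25 and 0.227 CPM in control. Only the YT libraries exceeded 3 CPM, and the interaction was -4.36 ± 0.40 (adjusted p = 5.87e-06 by limma). IL1A, its relative that acts as an alarm signal, and IL24, an interleukin-10 family cytokine, had interactions of -4.28 ± 0.34 and -4.49 ± 0.35, and the call of IL24 was lost with edgeR (adjusted p = 0.0871). Against 4.53% lower and 3.35% higher over all genes, 5 of the 9 measured cytokines of this list had a lower and 0 a higher interaction. IL6 was not among them. It had 2.33 and 1.63 CPM in STING_YT, 5.04 and 4.24 CPM in STING, 11.3 and 0.926 CPM in YT, and 4.36 and 3.98 CPM in control, so the YT libraries lay on either side of all others. Its interaction was -0.84 ± 0.75 (interval -2.43 to 0.75), and was called as lower without YT library 4. PTGS2, the inducible cyclooxygenase COX-2 that starts prostaglandin synthesis, kept a called rise. It had 35.0 and 61.1 CPM in STING_YT, 1.21 and 2.31 CPM in STING, 749 and 539 CPM in YT, and 2.96 and 3.86 CPM in control. Both STING_YT libraries exceeded every STING and control library, and both YT libraries exceeded them in turn. The YT effect was 4.13 ± 0.23 with STING depleted and 7.18 ± 0.23 with STING intact, an interaction of -3.05 ± 0.33 (adjusted p = 2.03e-05 by limma). PTGES, which makes prostaglandin E2 from the product of COX-2, had an interaction of -2.29 ± 0.22, and PTGFR, the receptor of prostaglandin F2 alpha, one of -1.90 ± 0.20. Of 11 measured prostaglandin genes, 4 had a lower interaction, against 4.53% of all genes, and 1 a higher one (the receptor PTGER2, chosen after its value was seen, at 1.14).

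Most measured ligands of the epidermal growth factor receptor had a lower interaction. Of 4 measured of 8, 3 had a lower and 0 a higher interaction, with a median of -1.16. Over all genes, 4.53% were lower and 3.35% higher. AREG (amphiregulin) had 82.6 and 110 CPM in STING_YT, 10.2 and 9.12 CPM in STING, 568 and 492 CPM in YT, and 17.8 and 18.5 CPM in control. Its YT effect was 3.18 ± 0.17 with STING depleted and 4.79 ± 0.17 with STING intact, an interaction of -1.61 ± 0.24 (adjusted p = 0.000402 by limma). EREG (epiregulin) had a YT effect of 1.47 ± 0.22 with STING depleted and 4.27 ± 0.22 with STING intact. HBEGF fell in both, by 1.53 with STING depleted and by 1.17 with STING intact, and its interaction of -0.36 ± 0.22 was not called. STC1, the secreted glycoprotein stanniocalcin-1, had 133 and 201 CPM in STING_YT, 108 and 105 CPM in STING, 1513 and 1416 CPM in YT, and 135 and 133 CPM in control. STING_YT library 15 lay within the range of control, while both YT libraries lay far above all others, and the interaction was -2.82 ± 0.21 (adjusted p = 8.14e-07 by limma). GDF15, a secreted stress cytokine, kept a YT effect of 1.30 ± 0.10 with STING depleted against 2.69 ± 0.10 with STING intact.

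**Figure D3:**
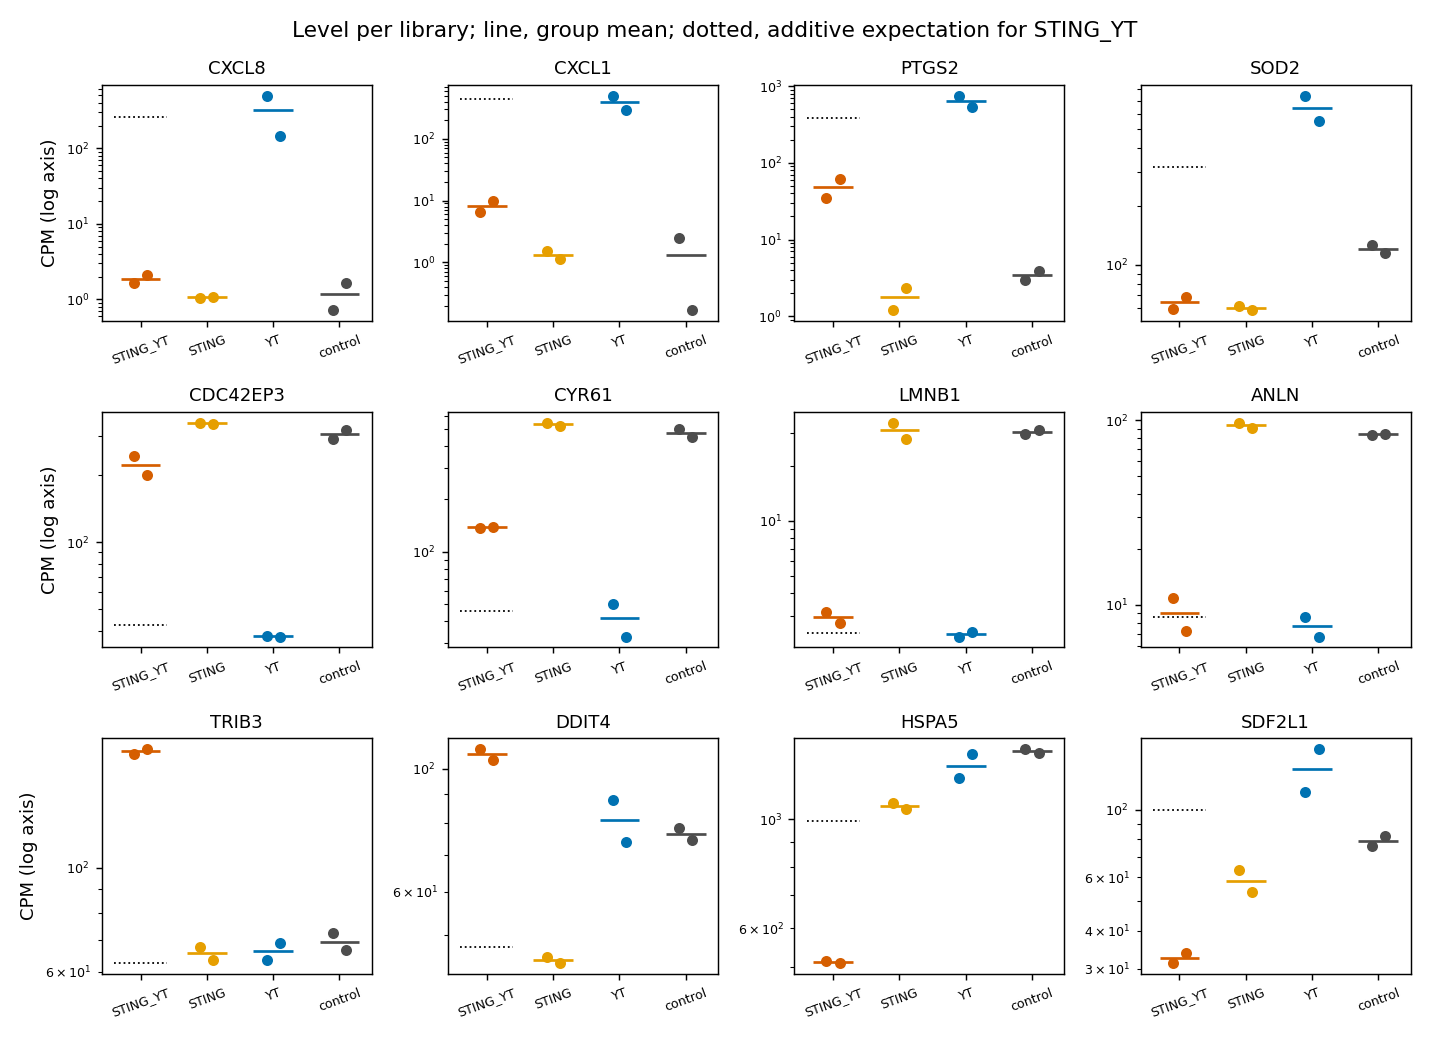
Level in CPM (log axis) of 12 genes in each of the 8 libraries, with groups from left STING_YT, STING, YT and control. Points are libraries, short lines group means, and the dotted line the additive expectation for STING_YT; for CXCL8 it lies at 258 CPM and the observed points at 1.67 and 2.08 CPM.

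Genes that NF-kB is known to switch on were the broadest group of weakened or lost rises. Of 27 measured of 29, 11 were higher and 3 lower in STING_YT than in STING, with a median of 0.33, while 24 were higher and 0 lower in YT than in control, with a median of 1.60. The interaction was lower for 20 and higher for 1 (CSF1, chosen after its value was seen, at 1.01), with a median of -1.51. Over all genes, 4.53% were lower and 3.35% higher. Of the 27, 9 changes were weakened, 8 lost and 1 reversed, and 4 CXC chemokines described above belong to the list. Each alternative processing and each omitted library left 19 to 21 lower interactions. The inhibitors that NF-kB itself induces were among them. NFKBIA, which encodes the inhibitor IkB-alpha, had 211 and 243 CPM in STING_YT, 162 and 160 CPM in STING, 897 and 960 CPM in YT, and 203 and 199 CPM in control. Its YT effect was 0.49 ± 0.09 with STING depleted and 2.20 ± 0.09 with STING intact, an interaction of -1.71 ± 0.13 (adjusted p = 1.1e-06 by limma). TNFAIP3 (A20, a ubiquitin-editing inhibitor of the pathway) had an interaction of -2.79 ± 0.26, and NFKBIZ (the nuclear regulator IkB-zeta) one of -2.41 ± 0.26. SOD2, the mitochondrial superoxide dismutase, had 59.5 and 68.5 CPM in STING_YT, 61.4 and 58.6 CPM in STING, 740 and 547 CPM in YT, and 126 and 116 CPM in control. The STING_YT and STING libraries overlapped, and both lay below control (STING minus control -1.0 ± 0.15 on the log2 scale). The YT effect with STING depleted was 0.09 (interval -0.24 to 0.41), so the rise of 2.39 ± 0.15 with STING intact was lost. CCL2, which attracts monocytes, also lost its rise (0.27 ± 0.27 with STING depleted and 2.60 ± 0.27 with STING intact). IKBKE, a kinase related to TBK1, lost a rise of 1.2 ± 0.15, with an effect of 0.14 ± 0.15 when STING was depleted.

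The promoters of 3 of these genes are given because they carry a match to the NF-kB consensus close to the start of transcription and their rises were weakened. They are 300 bases long, from 250 before to 50 after the RefSeq start on GRCh38.p14: CXCL1 at chr4:73869143-73869442 (+ strand), NFKBIA at chr14:35404700-35404999 (- strand) and TNFAIP3 at chr6:137867009-137867308 (+ strand). Capitals mark matches to the NF-kB consensus of 10 bases, GGGRNWYYCC, read on both strands. In it, R is A or G, W is A or T, Y is C or T and N is any base.
CXCL1: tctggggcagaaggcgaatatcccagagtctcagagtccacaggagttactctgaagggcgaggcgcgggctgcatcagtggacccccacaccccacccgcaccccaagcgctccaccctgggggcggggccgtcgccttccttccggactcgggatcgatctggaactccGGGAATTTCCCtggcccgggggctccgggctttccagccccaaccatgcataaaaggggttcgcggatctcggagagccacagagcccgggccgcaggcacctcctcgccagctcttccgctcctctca
NFKBIA: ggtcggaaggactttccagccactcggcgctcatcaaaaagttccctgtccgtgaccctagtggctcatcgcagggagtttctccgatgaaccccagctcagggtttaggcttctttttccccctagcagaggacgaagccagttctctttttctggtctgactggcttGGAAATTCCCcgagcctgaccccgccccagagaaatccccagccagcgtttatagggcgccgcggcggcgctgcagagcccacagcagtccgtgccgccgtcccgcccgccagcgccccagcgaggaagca
TNFAIP3: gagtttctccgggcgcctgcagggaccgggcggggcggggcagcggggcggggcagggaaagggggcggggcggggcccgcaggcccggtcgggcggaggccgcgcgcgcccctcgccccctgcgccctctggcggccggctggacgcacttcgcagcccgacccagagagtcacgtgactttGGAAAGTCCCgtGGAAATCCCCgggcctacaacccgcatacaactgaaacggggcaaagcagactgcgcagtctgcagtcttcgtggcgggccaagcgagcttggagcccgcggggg
The match begins 79 bases before the start in CXCL1, where 2 matches on opposite strands overlap, 81 before it in NFKBIA and 67 before it in TNFAIP3, which has 2 matches. Of 22 NF-kB list genes with a promoter in the table, 14 (63.6%) held a match, against 5.72% of all 27305 promoters. That list holds known NF-kB targets, so this share describes the list and not the interaction. Among genes that rose in YT, a match was found for 23 of 146 (15.8%) weakened, lost or reversed rises and 14 of 139 (10.1%) additive ones, and in 6.6% of the 9719 tested genes with a promoter. The 146 include NF-kB list genes, and the shares without them were not computed. Among genes that fell, the shares were 1.18% of 85 and 4.98% of 281. The windows of CXCL8, SOD2 and PTGS2 hold no full match to this pattern. The CXCL8 window holds tggaatttcc, which departs from the pattern in the first letter only. A match is a stretch of letters and was not tested as a binding site.

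Few interactions were called among interferon-stimulated genes, where most changes of 2-fold or more were not resolved. Of the members that rose 2-fold or more in YT, 1 was additive within 2-fold, 7 were not resolved and 1 was weakened. Of 46 measured of 47, 18 rose in STING_YT over STING, with a median of 0.50, and 25 rose in YT over control, with a median of 0.66. Their interaction had a median of -0.09, which became -0.30 without STING library 13 and 0.14 without STING library 14. Of the interactions, 1 was lower and 0 were higher, against 4.53% lower and 3.35% higher over all genes. Without YT library 3, 4 were lower and 2 higher, and the difference from the NF-kB list was not tested. The called gene was the chemokine CXCL10 (-2.33 ± 0.59, adjusted p = 0.0208 by limma), whose call was lost when control library 1, STING library 14 or either STING_YT library was left out, and with edgeR and DESeq2. IFI6, an interferon-induced mitochondrial protein, had 712 and 752 CPM in STING_YT, 386 and 630 CPM in STING, 147 and 208 CPM in YT, and 102 and 109 CPM in control. Levels were highest in the STING_YT libraries and lowest in control, with no overlap between groups. Its YT effects were 0.57 ± 0.21 with STING depleted and 0.73 ± 0.21 with STING intact, and its interaction of -0.16 had an interval of -0.78 to 0.46. MX1, an antiviral GTPase, had 31.0 and 51.0 CPM in STING_YT, 9.51 and 26.3 CPM in STING, 33.7 and 42.5 CPM in YT, and 11.7 and 11.02 CPM in control. Its STING libraries were far apart, and the interval of its interaction, -1.62 to 0.85, spans changes of more than 1.5-fold in either direction. IFIT1, an RNA-binding antiviral protein, had an interaction of 0.83 ± 0.42 that was not called. Of 15 measured genes of MHC class I presentation, 0 had a called interaction (2 lower without YT library 3), a share near the background of 7.88%.

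Reversed changes numbered 11, of which 7 had risen and 4 had fallen in YT. G0S2, an inhibitor of fat breakdown, had 15.8 and 20.2 CPM in STING_YT, 36.2 and 31.7 CPM in STING, 126 and 76.3 CPM in YT, and 24.3 and 29.7 CPM in control. STING_YT libraries were the lowest of the 8 and YT libraries the highest, with effects of -0.89 ± 0.20 with STING depleted and 1.83 ± 0.20 with STING intact. TM4SF1, a membrane protein of the tetraspanin-like family, had 118 and 129 CPM in STING_YT, 159 and 151 CPM in STING, 382 and 425 CPM in YT, and 154 and 171 CPM in control. Its interaction was -1.64 ± 0.12 (adjusted p = 1.1e-06 by limma). ENC1 (an actin-binding protein), PTX3 (a soluble pattern recognition protein), ABHD17C (an enzyme that removes palmitate from proteins) and SERPINB2 (an inhibitor of plasminogen activators) reversed likewise, with interactions of -2.08, -1.86, -1.64 and -3.53. SERPINB2 rested on 0.83 to 8.19 CPM. PRR16, chosen after its values were seen, was the remaining reversed rise, at -2.11. In the other direction, ACTA2, the smooth muscle actin that marks contractile fibroblasts, had 1160 and 1014 CPM in STING_YT, 819 and 817 CPM in STING, 790 and 934 CPM in YT, and 1753 and 1915 CPM in control. Each siRNA by itself lowered ACTA2, by 1.16 for STING and by 1.09 for YAP/TAZ, whereas the STING_YT libraries lay above the STING libraries by 0.41 ± 0.10. Its interaction was 1.5 ± 0.14 (adjusted p = 6.15e-06 by limma), and the additive expectation was 383 CPM against an observed 1085 CPM. JAG1, a Notch ligand, reversed with an interaction of 1.53 ± 0.23. The other 2, TSPAN2 and DBP, also chosen after their values were seen, had interactions of 1.76 and 2.17. Leaving out a single library moved ACTA2, TM4SF1 and JAG1 to lost or to no class in some cases but kept their called interaction.

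Known YAP/TAZ targets fell in both backgrounds, and part of them fell less with STING depleted. Of 30 measured, 25 fell in STING_YT below STING, with a median of -0.79, and 22 fell in YT below control, with a median of -1.04. Against 4.53% lower and 3.35% higher over all genes, the interaction was lower for 2 and higher for 11, with a median of 0.26. The count of higher interactions was smaller without any single control, STING or STING_YT library. It was 9 with only the 8 libraries and 6 under a constant prior. More lower interactions were called without YT library 4. CDC42EP3, an effector of the GTPase CDC42, had the most positive interaction of any gene with a mean of 5 CPM or more. It had 243 and 202 CPM in STING_YT, 345 and 341 CPM in STING, 37.8 and 37.7 CPM in YT, and 290 and 320 CPM in control. YT libraries alone were low, and the effects were -0.63 ± 0.09 with STING depleted and -2.98 ± 0.09 with STING intact (interaction 2.35 ± 0.13, adjusted p = 3.1e-08 by limma). CYR61 (CCN1, a secreted matrix protein) had 137 and 139 CPM in STING_YT, 547 and 523 CPM in STING, 50.6 and 32.8 CPM in YT, and 502 and 454 CPM in control. Its fall was weakened, with an interaction of 1.57 ± 0.19, and so was that of THBS1 (thrombospondin-1), with one of 0.94 ± 0.14. CTGF (CCN2), the close relative of CYR61, did not share this. It had 50.3 and 56.6 CPM in STING_YT, 383 and 349 CPM in STING, 125 and 76.4 CPM in YT, and 632 and 637 CPM in control. The CTGF effects of -2.75 ± 0.15 with STING depleted and -2.68 ± 0.15 with STING intact were additive within 2-fold (interaction -0.07, interval -0.51 to 0.38), although without YT library 4 the fall was called as strengthened. ANKRD1, a muscle ankyrin protein, was not resolved (0.49, interval -0.15 to 1.13), at 0.475 to 15.9 CPM.

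Other large positive interactions lay outside that list. LBH, a transcription cofactor, had 240 and 225 CPM in STING_YT, 280 and 273 CPM in STING, 38.1 and 45.5 CPM in YT, and 224 and 231 CPM in control. The STING_YT libraries overlapped control, and the interaction was 2.18 ± 0.12. CLDN11, a tight junction claudin, had 436 and 384 CPM in STING_YT, 1251 and 1213 CPM in STING, 50.3 and 48.0 CPM in YT, and 614 and 693 CPM in control. It fell in both backgrounds, by 1.59 with STING depleted and by 3.70 with STING intact. OXTR, the oxytocin receptor, fell by 3.45 and by 4.77, with an interaction of 1.32 ± 0.16. The potassium channel gene KCNJ2 lost its fall, with effects of -0.20 ± 0.24 and -2.49 ± 0.24. Genes of the contractile apparatus and focal adhesions shared the direction. Of 23 measured, 13 fell and 2 rose in STING_YT against STING (median -0.25) and 20 fell in YT against control (median -0.70). Against 3.35% higher and 4.53% lower over all genes, the interaction was higher for 9 of them and lower for 0 (median 0.34). Examples are ACTG2 (smooth muscle gamma actin, 1.18 ± 0.12), FLNC (the actin crosslinker filamin C, 1.02 ± 0.14) and CNN1 (calponin-1, which binds actin and tropomyosin, 0.90 ± 0.13). The Arp2/3 complex, which branches actin filaments, had 0 of 9 called interactions, which is near the background of 7.88%, and 2 higher and 2 lower without YT library 3. Its subunit ACTR2 fell by 2.07 with STING depleted and by 1.90 with STING intact, with an interaction of -0.17 and an interval of -0.44 to 0.09.

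The falls of cell division genes were the clearest block of changes additive within 2-fold. Of 30 measured G2 and mitosis genes, 30 fell in STING_YT below STING and 29 in YT below control, with medians of -2.78 and -2.64. None had a called interaction by limma, and 23 were additive within 2-fold and 6 not resolved. Their median interaction was -0.25, against -0.001 over all genes, and lay between -0.37 and -0.13 over the alternatives. ECT2 stood at -0.78 with DESeq2, which called it lower. Without single libraries or with other tools, 0 to 3 were called lower. ANLN, a scaffold of the cleavage furrow, had 10.9 and 7.22 CPM in STING_YT, 97.1 and 91.3 CPM in STING, 8.56 and 6.74 CPM in YT, and 83.6 and 84.6 CPM in control. The libraries without YAP/TAZ siRNAs overlapped neither group with them, and the effects were -3.27 ± 0.16 with STING depleted and -3.31 ± 0.16 with STING intact, an interaction of 0.04 (interval -0.44 to 0.51). LMNB1, the nuclear lamin B1 whose loss is a known sign of senescence, had 3.17 and 2.74 CPM in STING_YT, 34.3 and 27.8 CPM in STING, 2.32 and 2.47 CPM in YT, and 29.6 and 31.4 CPM in control. Its interaction was 0.20 (interval -0.35 to 0.75). NCAPG (a condensin subunit) and ZWINT (a kinetochore protein) had interactions of 0.07 and 0.07. TOP2A, the topoisomerase of dividing cells, was called as strengthened by DESeq2 and without YT library 3, its interaction being -0.52 (interval -0.87 to -0.18). Of 29 S phase genes, 27 fell with STING depleted and 28 with STING intact, 13 were additive, and the replication clamp PCNA had the 1 called interaction (0.71 ± 0.19). That call was lost without either control, STING or STING_YT library (adjusted p = 0.0626 to 0.115 by limma), and without YT library 3 the list had 4 higher and 3 lower interactions. CDKN1A, the cell cycle inhibitor p21, rose by 0.38 ± 0.10 and by 0.42 ± 0.10, with an interaction of -0.04 (interval -0.35 to 0.27).

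Some strong rises were additive as well. GRIA4, a glutamate receptor subunit, had 41.9 and 47.9 CPM in STING_YT, 4.31 and 5.69 CPM in STING, 100 and 101 CPM in YT, and 14.4 and 11.8 CPM in control. STING siRNA lowered GRIA4 by 1.15 in YAP/TAZ-depleted and by 1.23 in YAP/TAZ-intact cells, and the YT effect was 2.94 ± 0.15 and 2.86 ± 0.15. PARM1, a mucin-like membrane protein, SEMA6D, a semaphorin, CYP2S1, a cytochrome P450, and CTTNBP2, a cortactin-binding protein, had interactions of 0.33, -0.28, -0.46 and -0.38. Their intervals stayed within 2-fold.

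Strengthened and gained changes went beyond the additive expectation. CKAP2L, a spindle protein, had 3.44 and 3.10 CPM in STING_YT, 32.7 and 31.9 CPM in STING, 8.51 and 8.03 CPM in YT, and 26.2 and 28.4 CPM in control. Its fall was strengthened (interaction -1.36 ± 0.22, adjusted p = 0.00075 by limma), and the call held without each library in turn. The strengthened genes FAM111B, RGMB, CEMIP, GLTP, SCN3A, DIO2, RRAD and PDZRN3 each lost the call without at least 1 library. Among gained changes, TRIB3, a pseudokinase induced when amino acids are short, had 175 and 179 CPM in STING_YT, 67.7 and 63.7 CPM in STING, 63.7 and 69 CPM in YT, and 72.5 and 66.8 CPM in control. It was high in the doubly depleted libraries only. TRIB3 rose by 1.42 ± 0.10 with STING depleted, against -0.07 ± 0.10 with STING intact (interaction 1.49 ± 0.14, adjusted p = 6.15e-06 by limma). Over all genes, 3.35% had a higher and 4.53% a lower interaction. Of 18 measured genes of the integrated stress response, which the factor ATF4 drives, 8 had a higher and 2 a lower interaction, with a median of 0.42. Over the alternatives 5 to 12 were higher and 0 to 2 lower, with 0 lower under a constant prior and without control library 1, STING library 13 or either STING_YT library. The median YT effect of the list was 0.47 with STING depleted and -0.05 with STING intact, against 0.03 and 0.003 over all genes. PSAT1, an enzyme of serine synthesis, had an interaction of 1.23 ± 0.17, DDIT4, an inhibitor of mTORC1, one of 1.14 ± 0.16, and DDIT3 (the factor CHOP) one of 0.84 ± 0.13. The 2 lower ones were CHAC1 (-0.62) and CEBPB (-0.58), both named after their values were seen. CARMN, a long non-coding RNA of smooth muscle, gained its change in another way. It had 35.2 and 39.5 CPM in STING_YT, 10.8 and 14.4 CPM in STING, 37.0 and 29.7 CPM in YT, and 39.5 and 28.7 CPM in control, so that the STING libraries alone were low.

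Chaperones of the endoplasmic reticulum had interactions of the opposite sign, and lower ones were more frequent than the 4.53% over all genes. Of 17 measured, 2 were higher and 8 lower in STING_YT than in STING, with a median of -0.27, while 10 were higher and 1 lower in YT than in control, with a median of 0.32. The interaction was lower for 9 and higher for 0, with a median of -0.61. Other processing gave 8 (constant prior) to 11 (DESeq2) lower and 0 higher ones. Leaving out single libraries moved the count of lower interactions, and higher ones appeared without YT library 3. HSPA5, which encodes BiP, the main chaperone of that compartment, had 514 and 509 CPM in STING_YT, 1081 and 1053 CPM in STING, 1216 and 1362 CPM in YT, and 1392 and 1368 CPM in control. The STING_YT libraries were the lowest and overlapped no other group, and the YT effects were -1.06 ± 0.08 with STING depleted and -0.10 ± 0.08 with STING intact (interaction -0.96 ± 0.12, adjusted p = 9.12e-05 by limma). SDF2L1, a cofactor of BiP, had 31.3 and 33.7 CPM in STING_YT, 63.3 and 53.5 CPM in STING, 114 and 158 CPM in YT, and 75.8 and 81.9 CPM in control. It fell by 0.82 with STING depleted but rose by 0.76 with STING intact, an interaction of -1.59 ± 0.19. MANF, a secreted stress-induced factor, and HYOU1, a chaperone of the HSP70 type, had interactions of -1.04 ± 0.18 and -0.68 ± 0.11. The promoter of HSPA5 (chr9:125241294-125241593, - strand, RefSeq on GRCh38.p14) is shown because it holds the endoplasmic reticulum stress element, searched on both strands as CCAAT and, 9 bases on, CCACG, and given in capitals.
HSPA5: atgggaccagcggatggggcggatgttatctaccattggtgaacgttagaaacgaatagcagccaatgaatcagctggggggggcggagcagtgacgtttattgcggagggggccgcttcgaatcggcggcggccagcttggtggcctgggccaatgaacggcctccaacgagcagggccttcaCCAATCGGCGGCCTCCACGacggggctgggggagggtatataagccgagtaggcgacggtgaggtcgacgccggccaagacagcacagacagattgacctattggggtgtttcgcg
The element begins 66 bases before the start. It was found in 6 of 16 chaperone promoters (37.5%), in 0.0806% of all promoters and in 0.144% of those of tested genes. The window of SDF2L1 holds none. The ATF4 element TGATGNAA was in 4 of 15 promoters of the integrated stress response list (26.7%), and not in those of TRIB3, DDIT3 or PSAT1. It was in 3.67% of all promoters and in 1.63% of those of tested genes. These shares describe the lists and not the interactions.

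**Figure D4:**
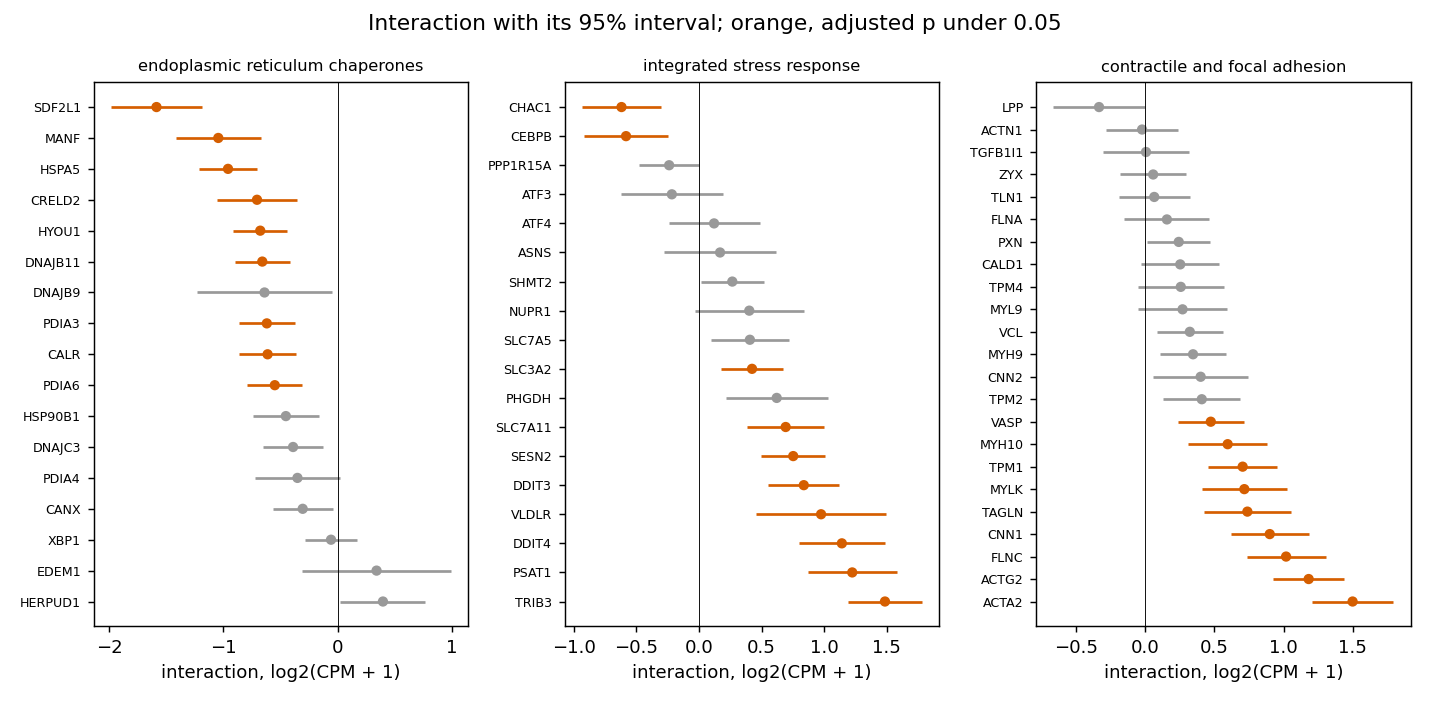
Interaction of each measured gene of 3 lists (endoplasmic reticulum chaperones, integrated stress response, contractile and focal adhesion) on the log2(CPM + 1) scale. Points are estimates, lines 95% intervals, and orange marks an adjusted p under 0.05; the called chaperones all lie below 0 and the called contractile genes all above it.

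The secreted factors linked to senescence followed the NF-kB list, with which they share genes. Of 31, 17 had a lower and 0 a higher interaction (median -0.91), against 4.53% lower and 3.35% higher over all genes. Higher interactions appeared in this list when YT library 3 was left out. MMP1, the interstitial collagenase, had 36.4 and 39.1 CPM in STING_YT, 64.2 and 64.3 CPM in STING, 136 and 139 CPM in YT, and 62.1 and 75.2 CPM in control. STING_YT libraries were the lowest and YT libraries the highest, with an interaction of -1.75 ± 0.20 (adjusted p = 3.15e-05 by limma). PLAUR, the urokinase receptor, had 104 and 101 CPM in STING_YT against at least 188 CPM in all 6 other libraries, an interaction of -1.07 ± 0.14. Of 6 genes of plasminogen activation, 3 had a lower interaction. Of 28 p53 targets, 5 had a higher and 3 a lower interaction. Cholesterol synthesis had 4 lower of 24, collagens and matrix 2 higher and 2 lower of 29, cytosolic ribosomal proteins 1 higher of 30, and hypoxia and glycolysis 1 lower of 18. Leaving out 1 library moved these counts. For p53 targets they were 1 higher and 2 lower without STING_YT library 15 and 9 higher and 7 lower without YT library 3, and for cholesterol synthesis 1 lower without STING library 13 and 9 without YT library 3. Collagens and matrix had 8 higher and 3 lower without YT library 3 and none without control library 1, STING library 14 or either STING_YT library. Mitochondrially encoded transcripts had 0 called interactions of 13, although 8 of them were higher in STING_YT than in YT. Shares near the background of 7.88% are no result about a list.

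**Figure D5:**
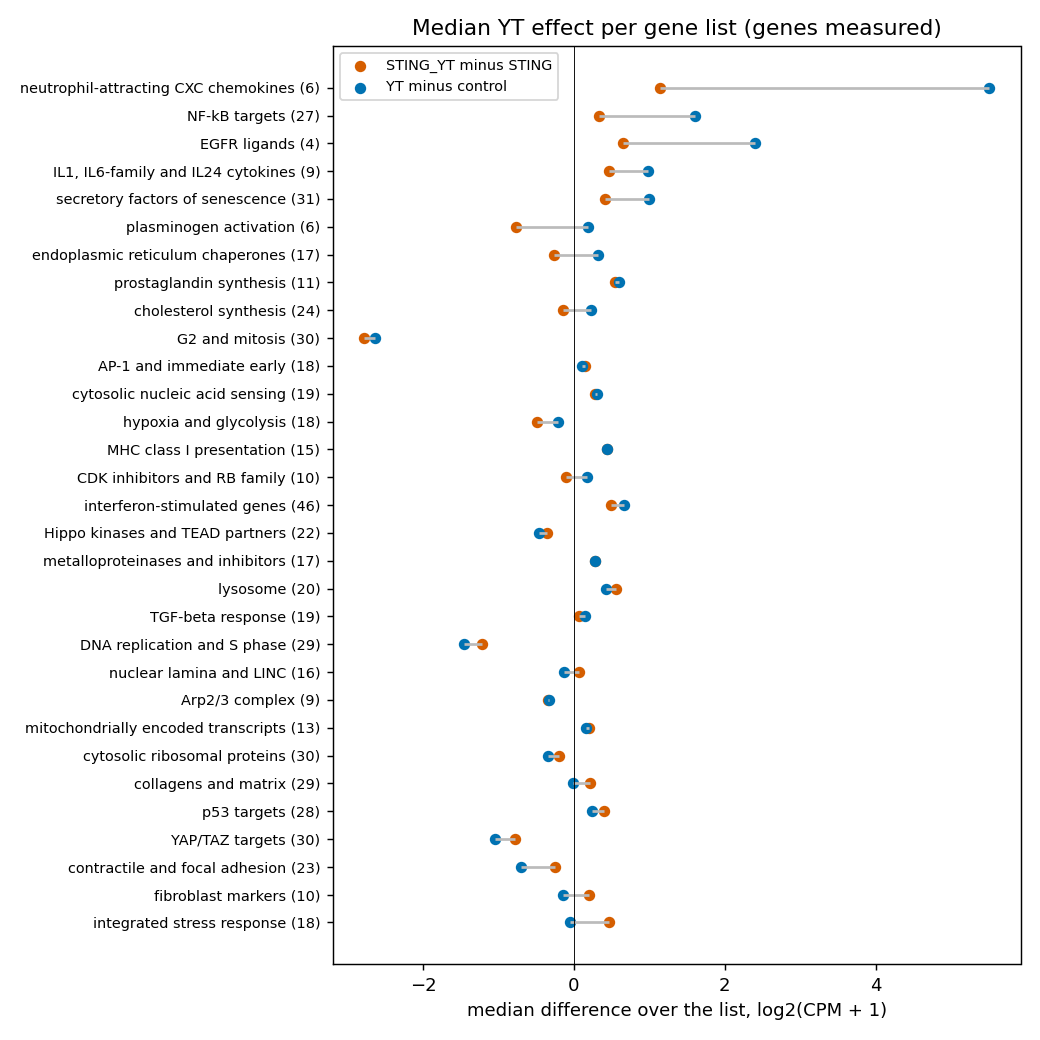
Median YT effect, as a difference of log2(CPM + 1), over each gene list with 4 or more measured genes (number in brackets), ordered by the median interaction. Orange points give STING_YT minus STING and blue points YT minus control; for the CXC chemokines they lie at 1.14 and 5.51, and for G2 and mitosis genes at -2.78 and -2.64.

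The same YAP/TAZ siRNAs in cGAS-depleted cells gave a comparison in which the control and YT libraries cancel: the YT effect with STING depleted minus that with cGAS depleted. It was added after the data were seen. It was called for 718 genes (5.17%), 228 (1.64%) higher and 490 (3.53%) lower. The YAP/TAZ siRNA targets were higher in cGAS_YT than in STING_YT. YAP1 had 24.6 and 21.7 CPM in cGAS_YT against 12.6 and 16.1 CPM in STING_YT. WWTR1 had 17.9 and 18.8 CPM against 12.7 and 11.4 CPM. The YT effect differed by -0.64 ± 0.17 for WWTR1, which was called, and by -0.58 ± 0.19 for YAP1, which was not. Whether the depth of YAP/TAZ depletion bears on the other differences was not tested. PTGS2 stood at 35.0 and 61.1 CPM in STING_YT and 1.21 and 2.31 CPM in STING, against 24.4 and 25.9 CPM in cGAS_YT and 13.4 and 15.7 CPM in cGAS. The YT effect on PTGS2 was larger with STING depleted by 3.38 ± 0.33 (adjusted p = 3.78e-05 by limma). AREG differed likewise by 1.98 ± 0.24. For CXCL1 and CXCL8 the differences of 1.29 ± 0.56 and 1.13 ± 0.56 were not called. The interactions with STING and with cGAS depletion share the YT and control libraries, so they are given side by side and not as independent results. The interaction was -6.50 with STING and -7.63 ± 0.56 with cGAS depletion for CXCL8, -5.59 and -6.88 ± 0.56 for CXCL1, -4.36 and -5.60 ± 0.40 for IL1B, and -3.05 and -6.43 ± 0.33 for PTGS2. LMNB1 had 3.17 and 2.74 CPM in STING_YT and 34.3 and 27.8 CPM in STING, against 3.45 and 2.39 CPM in cGAS_YT and 10.2 and 8.69 CPM in cGAS. Its fall was larger with STING depleted, by a difference of -1.59 ± 0.26, and cGAS libraries without YAP/TAZ siRNAs were already lower than STING libraries. TRIB3 had 30.9 and 36.9 CPM in cGAS_YT and 34.4 and 36.1 CPM in cGAS, so that its rise in STING_YT over STING exceeded the cGAS background by 1.48 ± 0.14. The chaperone HSPA5 differed between the backgrounds by -0.28 ± 0.12, which was not called. The number of calls fell when any single STING, STING_YT, cGAS or cGAS_YT library was left out. It rose without either YT library. The YT libraries enter this comparison only through the filter on low values and the shared estimate of the spread.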

How the data were processed

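Libraries of the 3' ends of messenger RNA (QuantSeq) gave about 1 fragment per transcript, per the labels' protocols. Per the submitters' processing notes, STAR 2.5.3a, featureCounts and edgeR were used with hg38. The strand setting is not given in the sources used here, nor is the annotation. The deposited signal is 1 value per gene and library, taken here as CPM scaled by the authors with TMM factors. Of the values, 100% were whole multiples of 1 read within 0.01 reads, which gave back whole counts. That check cannot tell TMM factors from another scaling per library. Per library, 1 read is worth 0.0472 to 0.0568 CPM, and 3 reads, the limit that a count of 0 allows for counting error, 0.142 to 0.17 CPM.

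The test planned for plain CPM was used unchanged: limma 3.58.1 under R 4.3.3, with an intensity trend, on log2(CPM + 1). A single fit took all 12 libraries (6 residual, 10.1 prior degrees of freedom) and the 13894 of 13937 genes that reached 1 CPM in 2 or more libraries. The pseudocount of 1 understates changes of low genes. Each contrast had its own Benjamini-Hochberg adjustment, with calls at 0.05. Genes named are the siRNA targets, the 12 most positive and negative interactions and the 5 largest YT effects of each class and direction, all with a mean of at least 5 CPM, up to 4 members of each of 35 lists by smallest interaction p, and a fixed set; the text gives a selection. The members and lists were chosen with earlier results of these data known. The lists held 593 genes, 559 of them measured. Positions come from GENCODE 29 on GRCh38, which held 90.3% of the tested symbols, and promoters from RefSeq (70.0%). Promoters were taken as 1 per symbol, and those on chromosome 8 were left out. Alternatives were 2 other pseudocounts, 2 filters, median-of-ratios scaling, a constant prior, only the 8 libraries, a narrower window, edgeR 4.0.16 and DESeq2 1.42.0 on the recovered reads, and leaving out each library. The procedure was tested on simulated data. Reads of overlapping, antisense or near-identical genes cannot be told apart here.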

Additional observations from a re-analysis of the deposited data

Results flagged for a closer look

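The YT effect differed between STING-depleted and STING-intact cells, by the test of the interaction itself, in 465 genes that were higher and 630 that were lower. Counting called genes that averaged 5 CPM or more over the 8 libraries, the 12 lowest interactions, on the log2(CPM + 1) scale, were those of CXCL8 (-6.50), CXCL1 (-5.59), CXCL5 (-4.57), IL24 (-4.49), IL1B (-4.36), IL1A (-4.28), SLC16A6 (-4.21), CXCL3 (-4.01), C11orf96 (-3.16), PTGS2 (-3.05), KYNU (-2.87) and STC1 (-2.82). The 12 highest at that level were those of CDC42EP3 (2.35), RASL11B (2.29), KCNJ2 (2.28), LBH (2.18), SHISA3 (2.13), CLDN11 (2.11), HHEX (2.07), SYNC (1.94), GPR63 (1.87), PKDCC (1.83), FGL2 (1.78) and RP4-621F18.2 (1.77).

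Between the STING-depleted and cGAS-depleted backgrounds, the YT effect differed in 718 genes. Among the genes named in the text, it was higher with STING depleted for PTGS2 (3.38), AREG (1.98), C11orf96 (1.77), CXCL3 (1.53), TRIB3 (1.48), STC1 (1.38), PARM1 (1.29), IL24 (1.26) and GRIA4 (1.14), among others. It was lower with STING depleted for LMNB1 (-1.59), ANKRD1 (-1.56), ZWINT (-1.33), CYR61 (-1.09), ANLN (-1.08), CTGF (-1.05), LBH (-0.70), WWTR1 (-0.64), CLDN11 (-0.61) and CDC42EP3 (-0.57), among others. WWTR1 is itself a target of the YAP/TAZ siRNAs. Whether the depth of its depletion bears on the other genes was not tested.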

How the results depend on the processing

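Of 3428 single-gene recomputations over 202 genes, 3127 kept their direction and side of the threshold, 244 lost and 57 gained the call, and 0 changed sign as called values. A prior without intensity trend called 703 interactions (392 lower), 169 gained and 14 strengthened changes, and 361 differences from the cGAS background. A window of 1.5-fold in place of 2-fold left 143 additive and 820 not resolved changes. Not resolved changes numbered 906 with a pseudocount of 0.25, 49 with 4, 943 with edgeR and 920 with DESeq2; lost ones 85 with a pseudocount of 4; and reversed ones 18, 20 and 17 with a pseudocount of 0.25, edgeR and DESeq2. Leaving out 1 library gave 550 to 2539 interactions (209 to 1329 higher, 341 to 1210 lower), 414 to 637 not resolved, 90 to 337 weakened, 109 to 244 lost, 7 to 35 reversed, 11 to 44 strengthened and 108 to 658 gained changes, and 266 to 1535 differences from the cGAS background. The highest value came without YT library 3 for most of these. The exceptions were not resolved changes (without control library 1) and the cGAS differences (without YT library 4). The YT libraries enter the cGAS differences only through the filter on low values and the shared estimate of the spread. The cause of the other shifts was not tested. Where a group is left with 1 library, that library is assumed to vary like the others. No paired analysis was possible because each replicate number occurs once. With 2 libraries a group, the 412 not resolved genes mark what the spread limits.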
